A study of Mus musculus with 4 samples.

Results

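The vacuolar proton pump (V-ATPase) is built from subunits that are in part encoded by families of isoform genes, and 10 of these genes were followed in the middle ear of mice exposed to diesel exhaust particles (DEPs). Members were found through the RefSeq accession that each array probe targets. All 10 genes were matched, by 11 of the 39429 probes on the array, and all 10 were among the 25694 genes tested. Of these, 5 are known as widely expressed (Atp6v1a, Atp6v1b2, Atp6v1g1, Atp6v0a1 and Atp6v0d1) and 5 as restricted to certain tissues (Atp6v1b1, Atp6v1c2, Atp6v1g2, Atp6v1g3 and Atp6v0a4).

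Each of 4 2-colour microarrays compared a DEP_ear extract, labelled with the red dye Cy5, with a CON_ear extract, labelled with the green dye Cy3. According to the methods, male BALB/c mice of 6 to 10 weeks, 9 in all, inhaled DEPs for 1 h a day over 5 days and were killed on day 14, and the temporal bone area with the middle ear was taken. The control ears carry the treatment label none, and how many mice stand behind an extract is not stated in the sources used here. Dyes were not swapped, so a dye preference of a probe and an effect of exposure cannot be told apart. The treatment labels of both groups stand under the red channel, and the source names were followed. The channels are called DEP and control by those names, and ratios are log2 of DEP over control, where 1 is a 2-fold difference. Read in this way, the arrays give Atp6v1b1, which the study lists among the genes raised by DEPs, the opposite sign. Its probe was well above background in no DEP channel and in 1 control channel only, so this sign cannot tell how the channels were labelled. If the channels were labelled the other way round, higher and lower would change places in every comparison given here, and sizes and p-values would stay. Every p-value measures the spread between these 4 arrays.

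The V-ATPase uses ATP to move protons into lysosomes, endosomes and synaptic vesicles, and in some cells across the plasma membrane to the outside. Its soluble V1 sector holds the catalytic A and the nucleotide-binding B subunits, with C, E and G subunits in the stalks that hold it to the membrane, and its V0 sector holds the proton channel with the a, c and d subunits. Most cells use the widely expressed isoforms. Acid-secreting cells of the kidney, the inner ear and the epididymis also use B1 and a4, neurons G2, and osteoclasts a3 and d2, and inherited loss of B1 or a4 causes renal tubular acidosis with deafness.

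The arrays lay on 1 slide and were scanned once, so no batch could be tested. Of all probes, 65.4% to 68.9% were well above background in the DEP channel and 59.2% to 68.0% in the control channel. The ratios of arrays 1 and 4 ran against each other (r = -0.22 over the probes, which do not count as independent replicates), and the SD of the ratios was 0.97 on array 1 against 0.63 to 0.69 on the others. The tissue label was read against marker genes. All 10 genes of middle ear mucosa, among them Bpifb1 and Bpifa1, and all 5 matched genes of bone, among them Col1a1 and Ibsp, were fully measured, that is, well above background in both channels of every array, as were all 5 of skeletal muscle, with Myh4 and Acta1. For the inner ear this held for 5 of 9 genes, with Otos and Coch, while Slc26a5, the motor protein of outer hair cells, stayed at background. Macrophage genes were present as well (5 of 6 matched genes fully measured, with Lyz2 and Csf1r).

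In this extract of mixed tissue, the widely expressed subunits were close to equal in both channels or slightly lower in the DEP channel. All 5 were fully measured. Atp6v0a1, which encodes the a1 subunit of the V0 sector that is abundant in neurons, was lower on 4 of 4 arrays, and Atp6v1b2, the widely expressed B subunit, was too. The remaining 3 genes lay near 0 by the deposited ratios.

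Atp6v0a1 had log2 ratios of -0.44, -0.65, -0.68 and -0.46 on arrays 1 to 4. After the arrays were brought to a common scale, its signal was 6311, 4977, 5631 and 4706 in the DEP channel against 8579, 7834, 8992 and 6476 in the control channel. The ratios averaged -0.56 with an SD of 0.12 over 4 arrays (moderated standard error 0.11, limma adjusted p = 0.135). Of the fully measured genes, 10.7% were likewise below 0 on all 4 arrays. Ratios of Atp6v1b2 were -0.69, -0.72, -0.69 and -0.19, with a mean of -0.57 ± 0.26 (standard error 0.14, adjusted p = 0.167). Its scaled signal was 359, 410, 319 and 342 in the DEP channel and 577, 673, 514 and 389 in the other, so that array 4 carried the smallest difference and the groups overlapped. Neither gene passed the test, and when the arrays were median-centred after another background correction (normexp), the mean of Atp6v0a1 was -0.07 and that of Atp6v1b2 -0.26. That setting moves the median of all genes from 0.03 to 0.11. The widely expressed members moved further, Atp6v1g1 from 0.04 to 0.51 and Atp6v0d1 from -0.06 to 0.30 among them, and why was not tested.

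Atp6v1a encodes the catalytic A subunit that splits ATP, and it is the only member with more than 1 probe. The brighter probe (A_55_P2169391) had ratios of -0.44, -0.44, -0.08 and 0.20 and a mean of -0.19 ± 0.31 (adjusted p = 0.533). The other (A_55_P2131279) was below 0 on 4 of 4 arrays, with a mean of -0.34 ± 0.25 (adjusted p = 0.279). The probes thus gave the same order of arrays, with 1 and 2 lowest and 4 highest. Ratios of Atp6v1g1, the common G subunit of the peripheral stalk, were 0.31, -0.05, -0.01 and -0.07, with array 1 apart from the rest, and the mean was 0.04 ± 0.18 (adjusted p = 0.859). For Atp6v0d1, which joins the rotor stalk to the ring of c subunits, they were -0.04, -0.25, -0.04 and 0.11, with a mean of -0.06 ± 0.15 (adjusted p = 0.803). The signs of these 3 means depend on the scaling. With median centring Atp6v1a was at 0.23, Atp6v0d1 at 0.30 and Atp6v1g1 at 0.51 (limma adjusted p = 0.0622). With normexp and loess Atp6v1g1 was at -0.03.

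**Figure D1:**
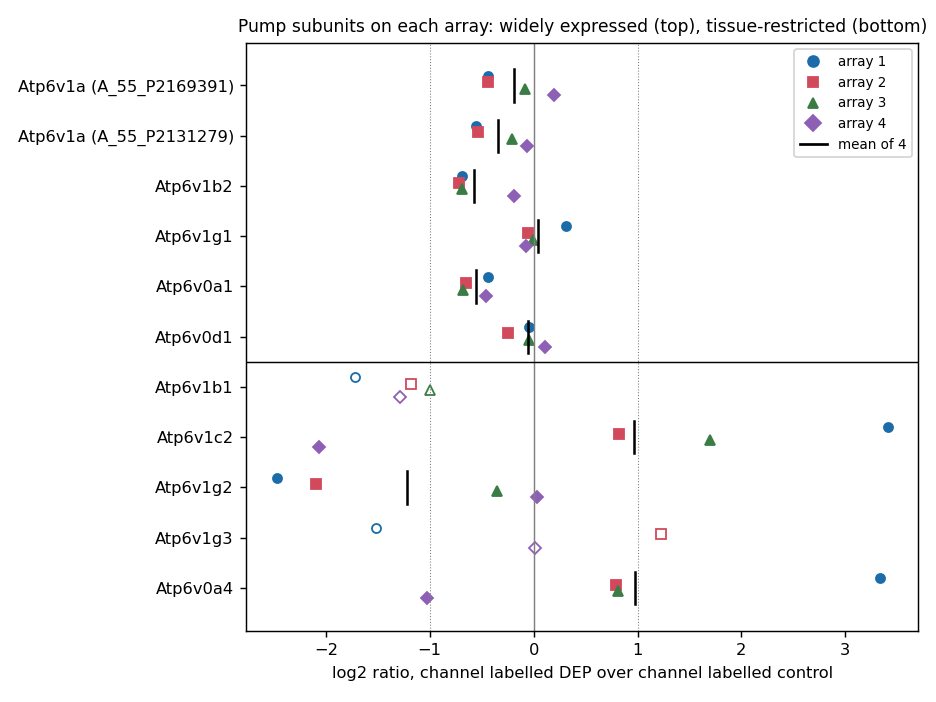
Log2 ratios (DEP over control) of the 11 probes of the pump genes, with 1 symbol per array. Black bars are means of 4 arrays and are drawn for fully measured probes, open symbols are probes not fully measured, and dotted lines mark 2-fold. The widely expressed genes stay between -0.72 and 0.31, while Atp6v1c2 spans -2.07 to 3.41.

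The 3 fully measured tissue-restricted subunits spread much further, with SDs of 1.24 to 2.29 against at most 0.31 for the brightest probes of the widely expressed ones. Atp6v1c2, an isoform of the C subunit that clamps the stalks together, and Atp6v0a4, the a4 subunit of the V0 sector, had more signal in the DEP channel of 3 arrays and less in that of the other. On array 1 the difference exceeded 10-fold for both genes and was 10.7-fold for Atp6v1c2. On array 4 it was 4.2-fold for Atp6v1c2 and 2.04-fold for Atp6v0a4 in the opposite direction. The mean ratios of both genes were smaller than the SD between arrays.

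Log2 ratios of Atp6v1c2 were 3.41, 0.82, 1.70 and -2.07 on arrays 1 to 4, with a mean of 0.96 ± 2.29 (SD over n = 4 arrays, standard error 0.90, adjusted p = 0.583 from limma). Its scaled signal was 13008, 3921, 3472 and 960 in the DEP channel and 1220, 2228, 1070 and 4033 in the control channel. The groups overlapped, since the control extract of array 4 exceeded 3 of the 4 DEP extracts and the DEP extract of array 4 was the dimmest of all 8 signals. Between arrays the signal ranged 13.6-fold in the DEP channel and 3.77-fold in the control channel. Without array 1 the mean ratio was 0.15, and without array 4 it was 1.98.

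Atp6v0a4 followed the same order of extremes. Its ratios were 3.33, 0.79, 0.81 and -1.03, with a mean of 0.98 ± 1.79 (standard error 0.70, adjusted p = 0.484). The scaled signal was 4046, 1443, 1233 and 782 in the DEP channel against 402, 833, 702 and 1594 in the control channel, again with array 4 reversed and the groups overlapping. Leaving out array 1 gave a mean of 0.19, and leaving out array 4 a mean of 1.65.

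The spread of these genes was wide for the array. Over the 18349 fully measured genes, the median SD between arrays was 0.28, and 0.763% of the genes had an SD at least that of Atp6v1c2 and 1.62% one at least that of Atp6v0a4. Both genes belonged to the 340 genes (1.85%) that were at least 2-fold higher on array 1 and at least 2-fold lower on array 4. These comparisons were chosen after the ratios had been seen and are descriptions only.

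**Figure D2:**
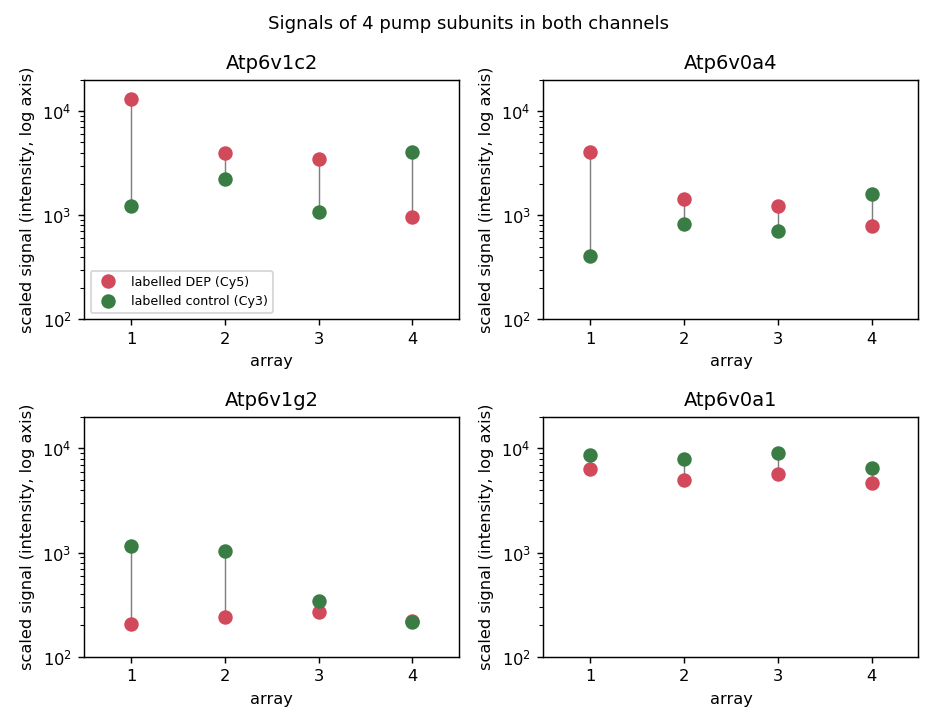
Scaled signals (intensity, log axis) of Atp6v1c2, Atp6v0a4, Atp6v1g2 and Atp6v0a1 on each of the 4 arrays, with the DEP channel in red and the control channel in green. Lines join the channels of an array. Atp6v1c2 and Atp6v0a4 change sides between array 1 and array 4, Atp6v1g2 parts on arrays 1 and 2, and Atp6v0a1 keeps a small difference throughout.

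Because Atp6v1c2 and Atp6v0a4 took the same signs on every array, their promoters are shown, with that of Atp6v1b1 as the other isoform gene of acid-secreting epithelium. The sequences are the 250 bases before the annotated start, from RefSeq on GRCm38.p6, at chr12:17324731-17324980 on the minus strand for Atp6v1c2, chr6:38124587-38124836 on the minus strand for Atp6v0a4 and chr6:83742767-83743016 on the plus strand for Atp6v1b1. Capitals mark TGTTTA, a core of forkhead sites such as those of Foxi1, the regulator of acid-secreting cells.
Atp6v1c2: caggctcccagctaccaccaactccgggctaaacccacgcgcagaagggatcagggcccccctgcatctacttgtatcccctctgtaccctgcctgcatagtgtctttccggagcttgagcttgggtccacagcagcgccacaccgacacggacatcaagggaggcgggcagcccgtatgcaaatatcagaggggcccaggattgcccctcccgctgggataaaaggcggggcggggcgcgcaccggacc
Atp6v0a4: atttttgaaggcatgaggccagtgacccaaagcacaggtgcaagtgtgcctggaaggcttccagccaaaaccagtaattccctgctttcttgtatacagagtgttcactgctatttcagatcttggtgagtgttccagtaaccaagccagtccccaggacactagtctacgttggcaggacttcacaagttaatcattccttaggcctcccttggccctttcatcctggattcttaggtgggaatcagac
Atp6v1b1: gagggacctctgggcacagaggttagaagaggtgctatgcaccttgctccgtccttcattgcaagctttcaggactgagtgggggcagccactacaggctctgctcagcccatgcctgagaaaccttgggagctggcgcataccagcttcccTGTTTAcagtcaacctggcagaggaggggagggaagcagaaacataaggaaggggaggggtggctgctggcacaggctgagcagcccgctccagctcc

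Promoters of 8 of the 10 members were found, in 9 windows, of which Atp6v1g2 has more than 1. They were searched on both strands for TGTTTA, for CACGTG (the core of the element that TFEB binds at lysosomal genes), for TGANTCA (AP-1) and for AACCNGTT (grainyhead factors of epithelia). TGTTTA was found in 1 member, Atp6v1b1, with its first base 98 before the start, and in 12% of all 32851 promoters. CACGTG was found in Atp6v1a and in 6.02% of all promoters, and TGANTCA in Atp6v0a1 and in 6.75% of all. No member held AACCNGTT, found in 1.79% of all promoters. The windows of Atp6v1c2 and Atp6v0a4 held none of the 4 motifs.

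Atp6v1g2, the G subunit of neurons, had less signal in the DEP channel of arrays 1 and 2 and near equal signal on arrays 3 and 4. The ratios were -2.47, -2.09, -0.35 and 0.03, with a mean of -1.22 ± 1.24 (SD over n = 4 arrays, standard error 0.49, adjusted p = 0.282 from limma). The scaled signal was 208, 241, 271 and 221 in the DEP channel and 1151, 1027, 346 and 216 in the control channel. The difference thus lay in the control channel of arrays 1 and 2, which ranged 5.33-fold between arrays, while the DEP channel ranged 1.3-fold. Array 4 made the groups overlap. The mean was -1.64 without array 4 and -0.80 without array 1. Of the fully measured genes, 4.29% had an SD at least as large.

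Atp6v1b1, the B subunit of acid-secreting cells, was barely detected. Its only probe (A_52_P169982) was well above background on no array in the DEP channel and on 1 array, array 2, in the control channel. The deposited ratios were -1.72, -1.18, -1.0 and -1.29, from scaled signals of 5.89 to 19.1 in the DEP channel and 19.4 to 46.5 in the other. Since these signals lie at background, no fold can be given, and the mean of -1.30 became -0.19 with normexp and loess and -0.36 with median centring. The study picked this gene as raised from these same arrays, so that its place among the members is not independent of these ratios. Atp6v1g3, the G subunit of kidney, stayed at background in both channels throughout and had a ratio on 3 arrays only, so no fold is given for it either.

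Counted over the members, 0 of 10 had an adjusted p under 0.05 in limma, as did 0.0% of the 25694 genes tested, and the adjusted p of the 8 fully measured members ranged from 0.135 to 0.859. Of these 8, Atp6v0a1 and Atp6v1b2 had an unadjusted p under 0.05 and lay below 0 on all 4 arrays, beside 6.07% of fully measured genes with such a p and a lower mean and 10.7% below 0 on all 4 arrays. With Atp6v1b1, whose signals lie at background, it was 3 of 10 by either count, all lower, beside 8.66% and 10.9% of all genes, and 18.7% had such a p in either direction. An ordinary least-squares test also gave 3, beside 3991 of the 25694 genes, and limma with an intensity trend 4, beside 4889. Neither called a member after adjustment. Past 2-fold by mean ratio was 1 of the 8, Atp6v1g2, which was lower, beside 2.45% of fully measured genes lower. Counting Atp6v1b1 at background it was 2 of 10, both lower, beside 4.37% of all genes lower and 6.75% in either direction. Atp6v1c2 and Atp6v0a4 lay just under the limit, at 1.95-fold and 1.97-fold higher by their means. With median centring the count was again 2 of 10, but of these other genes and higher, Atp6v1c2 at a log2 mean of 1.26 and Atp6v0a4 at 1.15, while Atp6v1g2 was at -0.85. Beside them, median centring put 605 of the 25694 genes past 2-fold in either direction. Under that setting 2 of 10 had an unadjusted p under 0.05, beside 9535 of the 25694 genes. The counts over the 10 members rested on single arrays. Without array 4, 4 members were past 2-fold, beside 10.2% of all genes, and 6 had an unadjusted p under 0.05, beside 18.8%. Without array 1, 1 member was past 2-fold, beside 5.92%.

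As classes, the median ratio of the widely expressed members was -0.44, -0.44, -0.08 and -0.07 on arrays 1 to 4, and the median over their means was -0.19. For the 3 fully measured tissue-restricted members it was 3.33, 0.79, 0.81 and -1.03, with a median over the means of 0.96. With the 2 members at background it was -1.52, 0.79, 0.23 and -1.03, with a median over the means of -0.09. The median over all genes was -0.02, 0.08, 0.03 and 0.04. The restricted class was not uniform, with Atp6v1g2 lowest where the other pair was highest.

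Within each array, a restricted isoform was then set against its widely expressed counterpart, over 6 pairs, so that what shifts both genes of a pair alike cancels. Atp6v0a4 minus Atp6v0a1 gave differences of 3.77, 1.45, 1.49 and -0.57, with a mean of 1.54 ± 1.77 on the log2 scale (SD, n = 4 arrays; exact sign-flip p = 0.25, two-sided). Atp6v1c2 minus Atp6v1c1 gave 4.27, 1.4, 1.82 and -2.36, with a mean of 1.28 ± 2.74 (exact p = 0.5). In both pairs the restricted isoform stood above its counterpart on arrays 1 to 3 and below it on array 4. Without array 1 the means were 0.79 and 0.29, and without array 4 they were 2.24 and 2.50. Atp6v1g2 minus Atp6v1g1 gave -2.78, -2.04, -0.34 and 0.10, with a mean of -1.26 ± 1.37 (exact p = 0.25), which was -0.76 without array 1. The osteoclast isoform Atp6v0d2 minus Atp6v0d1 gave 0.49, 0.33, -0.08 and 0.93, with a mean of 0.42 ± 0.42 (exact p = 0.25), which was 0.25 without array 4 and 0.14 with median centring.

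The remaining pairs rest on genes at background. Atp6v1b1 minus Atp6v1b2 gave -1.03, -0.47, -0.31 and -1.10, below 0 on 4 of 4 arrays, and its mean turned from -0.73 to 0.29 with normexp and loess. Atp6v1g3 minus Atp6v1g1 had a mean of -0.16 over 3 arrays, which became 0.68 without array 1. Adjusted over the 6 pairs, the p-values were 0.375 to 1.0. The smallest p that 4 arrays allow is 0.125, so that no pair could have passed 0.05.

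**Figure D3:**
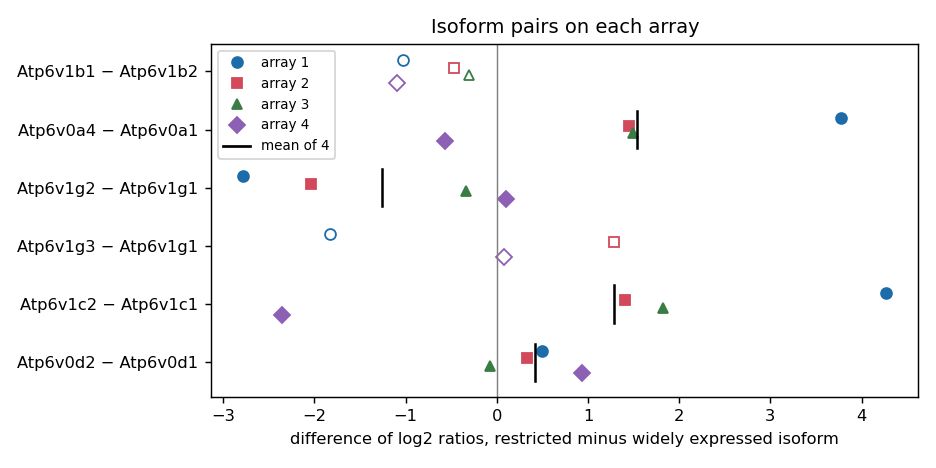
Difference of log2 ratios, restricted isoform minus widely expressed isoform, for 6 isoform pairs on each of 4 arrays. Bars are means of 4 arrays and are drawn where both genes were fully measured, and open symbols are the other pairs, of which Atp6v1g3 has 3 arrays. The pairs of Atp6v0a4 and Atp6v1c2 spread over more than 4 log2 units, with array 1 highest and array 4 lowest.

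The other 15 pump subunit genes all had a probe, and 14 were fully measured. After adjustment 0 of 15 had a p under 0.05 in limma. Before it, 4 were lower (Atp6v0e2, Atp6ap1, Atp6v0b and Atp6ap2) and 2 higher (Atp6v0e and Atp6v1e2), beside 8.66% of all genes lower and 10% higher. The median over their means was -0.11, and that over all genes 0.03.

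Only Atp6v0e2 was past 2-fold among these 15, beside 6.75% of all genes in either direction and 4.37% lower, and it was not with median centring (-0.93). It encodes the e2 subunit, an isoform enriched in brain, and its ratios were -2.27, -1.80, -1.04 and -0.28, all below 0, with a mean of -1.35 ± 0.87 (SD over n = 4 arrays, standard error 0.35, adjusted p = 0.18 from limma). Its scaled signal was 1932, 2768, 3399 and 3303 in the DEP channel and 9288, 9651, 6990 and 4019 in the other. Without array 1 the mean was -1.04. Its widely expressed counterpart Atp6v0e was above 0 on 4 of 4 arrays, at 0.43, 0.26, 0.26 and 0.18 (mean 0.28, adjusted p = 0.257), and with median centring it passed the test with a mean of 0.81 (adjusted p = 0.0335), a setting under which 2988 genes passed.

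Accessory subunit Atp6ap1 had a mean of -0.54 ± 0.19 (adjusted p = 0.157) by its brighter probe, below 0 on 4 of 4 arrays, and -0.19 by the other, which was above 0 on arrays 3 and 4. Atp6ap2, the prorenin receptor, had a mean of -0.39 ± 0.26 (adjusted p = 0.253), and Atp6v0b, a subunit of the proton-carrying ring, one of -0.44 ± 0.20 (adjusted p = 0.197), both below 0 on 4 of 4 arrays. With median centring Atp6ap1 was at -0.08 by its brighter probe, Atp6ap2 at 0.03 and Atp6v0b at 0.01. Atp6v1c1, the common C subunit, had ratios of -0.85, -0.59, -0.12 and 0.29 (mean -0.32 ± 0.51, adjusted p = 0.467), the reverse of the order seen for Atp6v1c2 at its ends. Atp6v1e2, at 0.47 ± 0.14, was well above background on 2 arrays only in the control channel and is named for the count alone.

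Genes that assemble or regulate the pump numbered 9, of which 6 were fully measured. Ncoa7, a protein that binds the pump, was at -0.82, -0.57, -0.72 and -0.69. The mean was -0.70 ± 0.10 (SD over n = 4 arrays, moderated standard error 0.11, adjusted p = 0.108 from limma). Its scaled signal was 73.2 to 107 in the DEP channel and 129 to 177 in the control channel. Its second probe was at background. After normexp and loess the mean was -0.33. With Wdr7, which was not measured in full, it made 2 of 9 genes with an unadjusted p under 0.05, both lower, beside 8.66% of all genes.

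**Figure D4:**
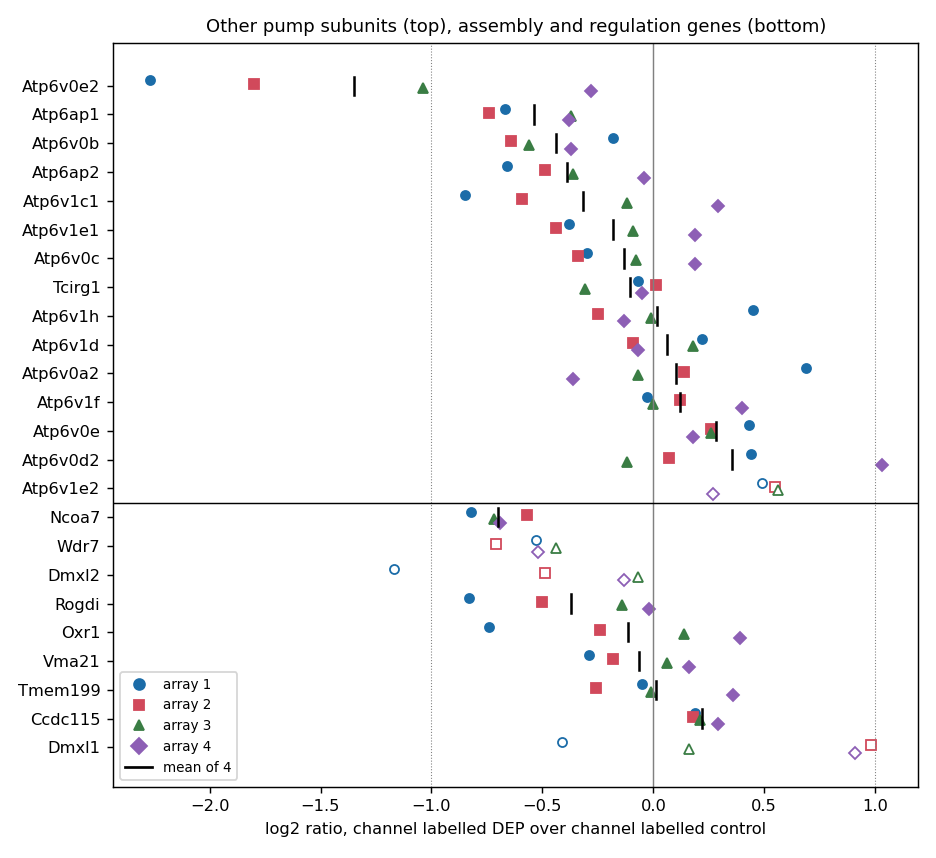
Log2 ratios (DEP over control) of the 15 other pump subunits and 9 genes of pump assembly and regulation, brightest probe each, with 1 symbol per array and the mean of 4 arrays as a bar where fully measured. Open symbols are probes not fully measured. Atp6v0e2 stands apart at a mean of -1.35, and Ncoa7 has 4 arrays close together.

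Cell type markers were set beside these genes. In an extract of mixed tissue, fewer cells of a type and less RNA per cell cannot be told apart. All 12 genes of a list for stratified squamous epithelium, which was added after the ratios of Atp6v1c2 and Atp6v0a4 were seen, had a mean above 0. The median over all genes was 0.03, and the share of all genes above 0 was not counted. Of the 12, 1 was past 2-fold, beside 6.75% of all genes. In limma 0 of 12 had an unadjusted p under 0.05, beside 18.7% of all genes, and the smallest adjusted p was 0.386. Their median over the 11 fully measured genes was 2.95, 0.43, 0.21 and -0.85 on arrays 1 to 4, the same signs as for Atp6v1c2 and Atp6v0a4. The summed scaled signal of the list was 57278 to 324120 in the DEP channel and 41167 to 106569 in the control channel, the highest in the DEP extract of array 1. Among its genes, Lor was at 3.04, 0.31, 0.02 and -0.12, Perp at 3.65, 0.43, 0.74 and -1.67, and none was at background throughout. The probes of Trp63, a transcription factor of basal cells, disagreed, with the brighter at -0.03, 0.15, -0.04 and 0.16 and the other at 3.47, 0.85, 0.67 and -1.40. The brightest probes of the other 11 genes lay between 2.47 and 3.75 on array 1. The part of this epithelium in the ratios of Atp6v1c2 and Atp6v0a4 was not tested.

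Acid-secreting epithelial cells gave another picture. Of their 10 marker genes 7 were fully measured, with a median of -0.69, 0.33, -0.10 and 0.24, so that array 1 was lowest where Atp6v1c2 and Atp6v0a4 were highest. On array 1, 6 of these 7 genes were below 0. The exception was Car12, a membrane-bound carbonic anhydrase, at 1.48, 0.59, 0.75 and -0.84, with the signs of Atp6v1c2 and Atp6v0a4 on every array. Foxi1 was at -0.69, 0.33, 0.13 and 0.31. The brightest of the list were Slc4a1, which red cells also express, at -1.11, 0.11, -0.19 and -0.32, and Car2 at -1.0, 0.35, 0.52 and 0.34. Cftr stayed at background throughout. The summed scaled signal was 28458 to 52577 in the DEP channel and 38654 to 53318 in the control channel.

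All 14 neuronal genes had a mean below 0, where the median over all genes was 0.03, and 0 of 14 had an adjusted p under 0.05 in limma. Over the 13 fully measured genes the median was -2.37, -1.38, -0.87 and 0.29 on arrays 1 to 4, near the ratios of Atp6v1g2 and Atp6v0e2 on array 1 and highest, as theirs were, on array 4. Past 2-fold were 8 of 14, all lower, beside 4.37% of all genes. The summed scaled signal was 16981 to 42330 in the DEP channel and 31895 to 79911 in the control channel, and no gene of the list was at background throughout. Snap25 was at -1.23, -0.88, -0.35 and -0.21, and Nefl at -2.37, -1.06, -0.54 and 1.16. On arrays 1 to 4 the control channel had neuronal sums of 70376, 71612, 79911 and 31895, and Atp6v1g2 signals of 1151, 1027, 346 and 216. The 5 genes of skeletal muscle had median ratios of -0.81, -0.55, 0.74 and 0.77, also lower on arrays 1 and 2. The part of nervous tissue or of muscle in the ratios of Atp6v1g2, Atp6v0e2 and Atp6v0a1 was not tested. The 8 fully measured osteoclast genes, which include Acp5 and Ctsk, had medians of 0.00, 0.18, -0.24 and 0.56, with array 4 highest as for Atp6v0d2 (0.44, 0.07, -0.12 and 1.03).

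**Figure D5:**
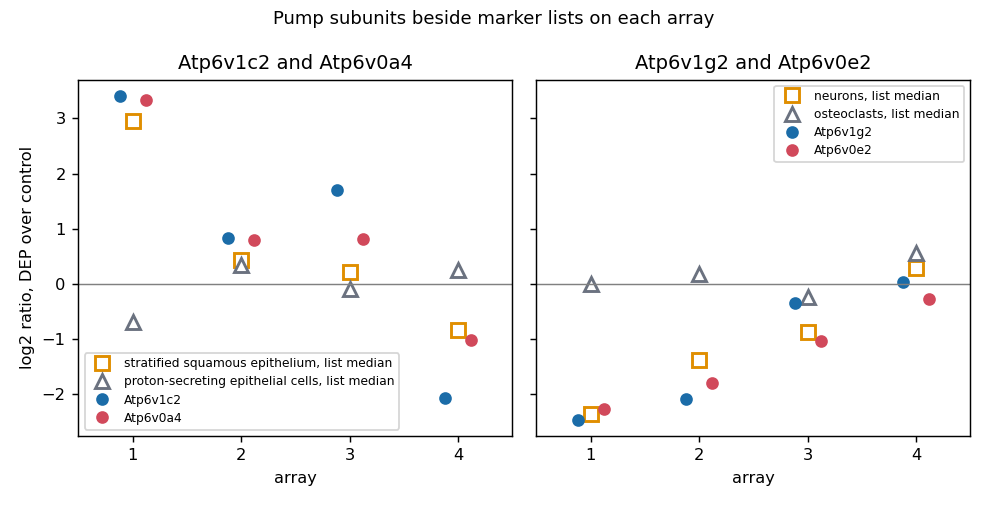
Log2 ratios of 4 pump genes (filled) and medians of marker lists over fully measured genes (open) on each array. On the left, Atp6v1c2, Atp6v0a4 and the stratified squamous list lie above 0 on arrays 1 to 3 and below it on array 4, while the list of proton-secreting cells is at -0.69 on array 1. On the right, Atp6v1g2, Atp6v0e2 and the neuronal list are at -2.27 to -2.47 on array 1.

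Genes with the most similar ratios were then listed for the members, by the root-mean-square difference of the 4 log2 ratios, among 14287 other named and fully measured genes. For Atp6v1g2, the fully measured member with the mean farthest from 0, they were Asic1 (0.06), Sptbn4 (0.11), Rasgrf1 (0.13), Mtcl1 (0.17) and Septin4 (0.18), and Atp6v0e2 ranked 150 at 0.42. For Atp6v1c2, added after seeing the data, they were Echdc1 (0.10), Pdss1 (0.13), Lratd1 (0.13), Srd5a1 (0.15) and Duox1 (0.20). For Atp6v0a4, added likewise, they were Grhl3 (0.15), Krt17 (0.16), Mal2 (0.18), Mst1 (0.19) and Cdh3 (0.20). Atp6v0a4 ranked 124 from Atp6v1c2, at 0.69. Of 3 markers of acid-secreting cells, Car12 ranked 411 from Atp6v1c2 and 498 from Atp6v0a4, Foxi1 11800 and 11841, and Slc26a4 12674 and 12589. Of the squamous markers, the basal keratin Krt14 ranked 52 and 105 and the brighter probe of Trp63 7399 and 7012. The list for middle ear mucosa had medians of -0.25, 0.31, -0.19 and -0.39 on arrays 1 to 4. Of its genes, Krt5 ranked 330 and 303 and Epcam 685 and 573, and the others were not ranked. With 4 arrays these distances describe the arrays at hand.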

How the data were processed

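Per the submitters' processing notes, the authors quantified the arrays with Agilent Feature Extraction 10.10.1.1 and gave GEO a file of spot values for each array. The deposited processed intensity is background-subtracted, detrended and dye-normalized within the array, and the deposited ratio is a log10 value, Cy5 against Cy3, set to 0 where none could be given. A deposited table of rounded log10 ratios was an alternative. No column was left without a sample (0).

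Here the ratios were converted to log2. Control spots, outlier spots (164 to 274 per array) and spots without a ratio (6179 to 8558 of 43020) were left out, and no spot was saturated. Spots of a probe were averaged, probes were named through RefSeq accessions (GRCm38.p6 table, 27655 of 39429 matched), the brightest probe stood for a gene, and a ratio on at least 3 arrays was required. limma 3.58.1 (R 4.3.3) fitted an intercept to 31577 probes with eBayes (two-sided), and p-values were adjusted over these probes by Benjamini-Hochberg, a fit checked on simulated data. All standard errors given are those moderated by eBayes, which draws on the variances of all probes. They are therefore not the SD over the square root of n and can exceed the SD. Fully measured means well above background, by the scanner software's flag, in both channels of all arrays. Scaled signals are Aquantile-normalized. Genes named beyond the members are pump genes measured in full with an unadjusted p under 0.05 or past 2-fold, the isoform counterparts, the brightest 2 of each marker list and the 5 nearest genes. Car12, Foxi1, Slc26a4, Krt14, Krt5, Epcam, Trp63, Cftr, Slc26a5, Wdr7 and Atp6v1e2 fall outside this rule and were named after their values were seen. Members and lists were chosen with earlier results of these data known. Alternatives were normexp (offset 50, on median spot signals, as mean signals were not used here) with loess or median centring, the deposited table, background filters, flagged spots kept, other variance models, the mean of a gene's probes and leaving out each array. Figures used matplotlib 3.10.9 under Python 3.11.15.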

Additional observations from a re-analysis of the deposited data

Results flagged for a closer look

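Of 18 single-gene ratios and 6 pair differences, those with 4 arrays were examined for an array far from the others. The ratio of Atp6v1b2 was -0.19 on array 4, apart from -0.69 to -0.72 on the other arrays. The ratio of Atp6v1g1 was 0.31 on array 1, apart from -0.01 to -0.07 on the others. These were 2 of 22 values examined, where chance gives about 1 in 20.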

How the results depend on the processing

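The number of members past 2-fold, 2, was 1 with normexp and loess, 1 with either filter on background, which leaves out Atp6v1b1, and between 1 and 4 when an array was left out. With median centring it was 2, but Atp6v1c2 (1.26) and Atp6v0a4 (1.15), both higher, took the place of Atp6v1g2 (-0.85) and Atp6v1b1 (-0.36). The number with an unadjusted p under 0.05, 3, lay between 3 and 6 when an array was left out, with 6 without array 4, and was 2 with median centring, where 9535 of all genes had such a p against 4799. The difference of Atp6v1b1 and Atp6v1b2 reversed to 0.29 with normexp and loess, and that of Atp6v1g3 and Atp6v1g1 ranged from -0.88 to 0.68 with 1 array left out. Of single ratios, median centring reversed Atp6v1a (0.23), Atp6v0d1 (0.30), Atp6v1c1 (0.12), Atp6v0b (0.01) and Atp6ap2 (0.03), and normexp with loess reversed Atp6v1g1 (-0.03). With 1 array left out, Atp6v1g1 ranged from -0.04 to 0.08, Atp6v0d1 from -0.11 to 0.01 and Atp6v1g3 from -0.76 to 0.62. The cause of these reversals was not tested. Over all genes, those past 2-fold numbered 1734, with 449 after normexp and loess and 605 after median centring. Those with an adjusted p under 0.05 numbered 0, and 2988 with median centring. No paired analysis was possible because the ratios already pair the channels of each array and no other group of ratios shares their numbers, and no block for slide or scan, as all lay on 1 slide. Signal over background limits Atp6v1b1 and Atp6v1g3, and the number of arrays limits all results.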
